A study of Mus musculus with 12 samples.

Results

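A set of 230 genomic regions was examined in which alveolar type II (AT2) cells of the lung carried a called peak of open chromatin away from metastases but not beside them. Peaks of all 12 libraries of the series were merged into 83727 regions wherever they overlapped by at least 1 bp. A region was distal-only in a tumour model if all 3 distal libraries and none of the 3 niche libraries of that model had a peak in it. By this rule 120 regions were distal-only in 4T1, 114 in CT26 and 4 in both models, which gives 230 regions in all. The opposite case, niche-only, took 2170 regions in 4T1 and 1303 in CT26. The niche lists held more peaks than the distal ones, and the part of list length in this difference was not tested.

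Omni-ATAC-seq, in which Tn5 transposase cuts and tags accessible DNA in isolated nuclei, was run on AT2 cells sorted by flow cytometry, 50000 per library. The groups were AT2 cells of the metastatic niche of 4T1 (a BALB/c mammary carcinoma line), AT2 cells of the distal lung of mice with 4T1, AT2 cells of the metastatic niche of CT26 (a BALB/c colon carcinoma line) and AT2 cells of the distal lung of mice with CT26, with 3 independent samples in each. All mice were BALB/c aged 6 to 8 weeks and carried tumour cells, since 800000 labelled cells were given by tail vein and lungs were taken at day 7; lungs without tumour cells are not among these groups. Each sample pooled 5 lungs, so single animals cannot be told apart, and the gate that separates niche from distal cells is not described in the labels.

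AT2 cells make and store pulmonary surfactant and act as progenitors of the alveolar lining. Chromatin that is open in a cell type lies mainly at gene promoters, which are shared by many cell types, and at enhancers, which often lie far from genes and differ more between cell types and states. A peak of open chromatin shows where DNA can be reached, and the gene nearest to it need not be the one it acts on.

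The niche libraries had longer peak lists than the distal ones, with 63722 to 66911 peaks in the 4T1 niche against 56330 to 58237 in 4T1 distal lung, and 51005 to 55529 in the CT26 niche against 42067 to 50093 in CT26 distal lung. The deposited lists hold no read counts, so depth is unknown, and fewer cells with an open region and a weaker opening in each cell cannot be told apart. A peak lay within 1 kb of an end of all 10 AT2 markers checked (Sftpc and Abca3 among them) in all 12 libraries. Of markers of other cells, 4 of 5 for AT1 cells, 2 of 5 for endothelium, 2 of 5 for airway, 1 of 5 for leukocytes (Cd68), 1 of 5 for mesenchyme (Col1a1) and 1 of 5 for other epithelium (Cdx2) had one in all 12, while Ptprc, Pecam1, Cdh5 and Pdgfra had one in none. Mesenchymal markers had a peak at 2 to 3 genes of 5 in the niche libraries and 1 to 2 in the distal libraries. This came from Pdgfrb, with a peak in every niche library and in 4T1 distal 1, and from Acta2 in 4T1 niche 2. The airway marker Scgb3a2 went the other way, with a peak in 3 libraries, all of them distal. The part of other cells in the results below was not tested.

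Few of the 230 regions touch a promoter, and the sequences of those that do show how unlike each other they are. Of 32619 promoter windows of RefSeq (build GRCm38.p6, 250 bases before to 50 after a start site), 6 overlapped a distal-only region and 3 of these lay wholly inside one, in a table that does not cover every chromosome. The windows of 4 genes are shown, 5′ to 3′ on the strand of the gene, with the bases inside the distal-only region in capitals and the others in lower case. They are the start of Vstm2b, which encodes a membrane protein with an immunoglobulin V-set domain (chr7:40899028-40899327, plus strand, distal-only in CT26), of the gene model Gm128 beside Bnipl (chr3:95241060-95241359, minus strand, distal-only in CT26), of the gene model Gm34869 (chr12:93210210-93210509, plus strand, distal-only in CT26) and of the gene model 2010308F09Rik (chrX:13236234-13236533, minus strand, distal-only in 4T1).
Vstm2b: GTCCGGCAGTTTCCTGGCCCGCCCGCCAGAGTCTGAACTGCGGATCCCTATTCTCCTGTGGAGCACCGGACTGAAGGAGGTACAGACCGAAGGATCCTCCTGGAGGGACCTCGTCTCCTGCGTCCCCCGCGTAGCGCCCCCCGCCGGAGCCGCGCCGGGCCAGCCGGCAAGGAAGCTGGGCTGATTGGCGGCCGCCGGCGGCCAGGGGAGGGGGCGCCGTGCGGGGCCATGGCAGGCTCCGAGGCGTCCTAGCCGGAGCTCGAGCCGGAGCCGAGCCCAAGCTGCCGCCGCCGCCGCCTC
Gm128: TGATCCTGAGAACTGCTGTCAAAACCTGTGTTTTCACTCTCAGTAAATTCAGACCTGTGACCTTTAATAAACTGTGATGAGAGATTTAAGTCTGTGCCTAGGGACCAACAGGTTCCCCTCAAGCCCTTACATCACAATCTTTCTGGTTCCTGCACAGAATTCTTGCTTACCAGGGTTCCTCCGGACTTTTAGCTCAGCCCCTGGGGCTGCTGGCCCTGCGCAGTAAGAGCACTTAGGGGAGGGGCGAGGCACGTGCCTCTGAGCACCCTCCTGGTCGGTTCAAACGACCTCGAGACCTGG
Gm34869: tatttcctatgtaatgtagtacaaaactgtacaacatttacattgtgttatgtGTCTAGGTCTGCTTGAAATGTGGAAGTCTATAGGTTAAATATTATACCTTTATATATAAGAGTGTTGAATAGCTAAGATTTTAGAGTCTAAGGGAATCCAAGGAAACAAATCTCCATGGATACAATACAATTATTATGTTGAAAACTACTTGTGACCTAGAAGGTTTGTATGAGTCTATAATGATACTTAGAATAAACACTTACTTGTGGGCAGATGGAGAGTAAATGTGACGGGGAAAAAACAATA
2010308F09Rik: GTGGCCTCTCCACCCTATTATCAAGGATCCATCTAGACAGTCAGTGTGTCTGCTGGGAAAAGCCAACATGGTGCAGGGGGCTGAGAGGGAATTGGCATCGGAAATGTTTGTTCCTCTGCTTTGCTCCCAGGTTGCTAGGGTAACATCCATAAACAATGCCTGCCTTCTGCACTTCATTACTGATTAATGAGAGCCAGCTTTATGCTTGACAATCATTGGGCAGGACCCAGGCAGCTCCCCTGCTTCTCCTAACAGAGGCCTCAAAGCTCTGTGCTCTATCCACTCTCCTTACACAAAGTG

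The Vstm2b window is rich in G and C (73.7%, with 34 CG dinucleotides), the Gm34869 window is poor in them (31.7%, with 1 CG) and the other windows lie at 52.3% (Gm128) and 50.0% (2010308F09Rik). Over all windows the median was 53% G and C and 7 CG dinucleotides. The windows were searched on both strands for 8 motifs, none of which contains another: the CCAAT box, the TATA box as TATAAA, the AP-1 motif TGANTCA, the GC box GGGCGG, the CACC box CCACACCC bound by Krüppel-like factors, the NRF2 element TGACNNNGC, the NKX2-1 core CAAGTG and the E-box CACGTG. Inside the capitals, Vstm2b held the CCAAT box and the GC box, Gm128 the E-box, Gm34869 the TATA box and 2010308F09Rik the CCAAT box. Over all windows the CCAAT box was found in 37.6%, the TATA box in 13.7%, the GC box in 35.9% and the E-box in 7.20%. No AP-1, CACC box, NRF2 or NKX2-1 letters were found in the 6 windows; all windows held them in 7.85%, 3.57%, 12.4% and 13.5%. A match of letters is a description and not a binding site.

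The distal-only regions lay outside genes in 51.7% of cases, a larger share than that of all regions, and farther from start sites. Of the 230, 119 lay outside protein-coding genes, 96 (41.7%) inside a gene and 15 (6.52%) within 1 kb of a gene end, against 33.9%, 48.2% and 17.9% of all regions. Niche-only regions lay outside genes in 41.9% of cases in 4T1 and 37.6% in CT26, and the remaining regions held by exactly 3 of the 6 libraries in 37.9% and 38.0%. The distal-only regions of each model stood above these at 49.2% in 4T1 and 54.4% in CT26. Among regions meeting the rule, the share outside genes was 43.3% with equal numbers of peaks per list and 40.7% where peaks had to cover 50% of a region. A start site of a protein-coding gene lay within 1 kb of 3 of 220 regions (1.36%; the start sites at hand leave out chromosome 18, which holds the other 10), against 13.9% of all regions. They are the starts of Vstm2b, of Gm128 and of Ctf2, a cytokine of the cardiotrophin family. The median distance to a start site was 44.3 kb, against 28.2 kb for all regions. Niche-only regions had a start site within 1 kb in 3.57% (4T1) and 4.99% (CT26) of cases, with median distances of 35.0 and 31.2 kb. The other regions held by 3 of 6 had 3.37% and 4.02%, with 34.0 and 33.6 kb. A gene end lay within 1 kb of 7.10% and 8.52% of niche-only and 7.10% and 7.79% of these other regions. Low shares near gene ends and start sites are thus not particular to distal-only regions. The rule chose regions by which libraries hold them, so these are descriptions with no test.

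**Figure D1:**
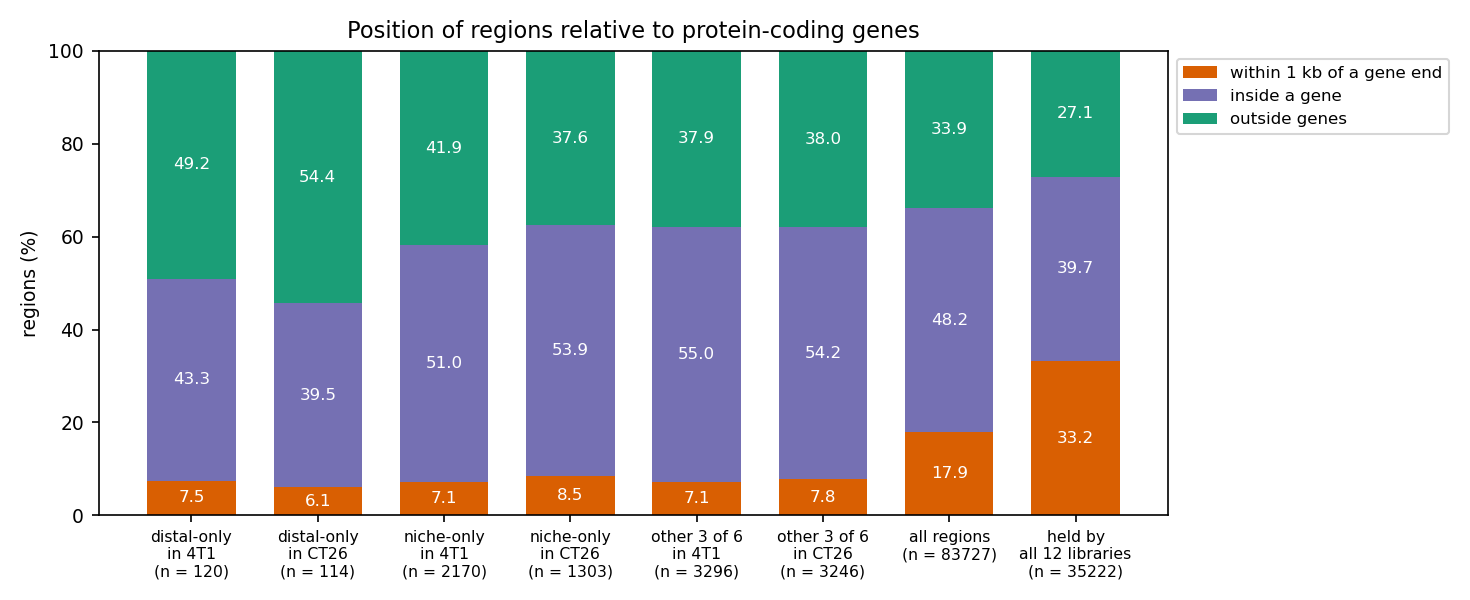
Bars give the percent of regions within 1 kb of an end of a protein-coding gene, inside a gene and outside genes, for distal-only regions of each model, niche-only regions, other regions held by 3 of the 6 libraries of a model, all regions and those held by all 12 libraries. Outside genes lay 49.2% and 54.4% of distal-only regions in 4T1 and CT26, and 27.1% of the regions held by all 12 libraries.

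Isolated regions were counted in each model, as a description with no test. Of the CT26 distal-only regions, 32 (28.1%) lay over 50 kb from any region that all 12 libraries held, against 13.2% of all regions and 11.0% of CT26 niche-only regions. In 4T1 these were 12 of the 120 distal-only regions and 18.4% of the niche-only regions. Among the isolated CT26 regions were 1 inside Opcml, a cell adhesion gene of neurons, 1 inside Meis2, a homeobox transcription factor, and 1 that was 842526 bp from the nearest such region and had Tlr4, the receptor for bacterial lipopolysaccharide, as nearest gene at 848791 bp. The farthest, 1439052 bp away, lay beside Btbd35f1 on the X chromosome, and others lay beside Speer4d and Zfp992. These 6 are examples chosen after their values were seen. Btbd35f1, Speer4d and Zfp992 belong to families of near-identical copies, where reads may not be placed with certainty. The X chromosome held 13 of the 230 regions (5.65%), against 2.64% of all regions. Regions within 50 kb of another were few, at 12.

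The peaks that made up the distal-only regions were weak. Each peak was ranked by its deposited -log10 p among all peaks of its library, where a percentile of 100 is the strongest. The distal-only regions had a median percentile of 16.1 in the 4T1 distal libraries and 17.7 in the CT26 distal libraries. All regions had 35.6 and 34.7, niche-only regions 19.6 and 20.4, and the remaining regions held by 3 of 6 libraries 14.2 and 15.5. The median fold enrichment over background, a ratio the authors' peak caller gave, was 3.47 in 4T1 and 3.50 in CT26, against 4.06 and 4.05 for all regions. In 4T1 a single distal-only region, near Strit1, lay over the 50th percentile, at 55.2, and in CT26 none did, with a highest value of 47.2 near Map2. All 3 distal peaks had a -log10 q of at least 5 in 4 regions of 4T1 and in 0 of CT26, and of at least 2 in 60 and 37. Where the 3 distal libraries called a region, they mostly called the same place, since their peaks shared at least 1 base in 224 of the 230 regions, with a median of 197 shared bases in 4T1 and 208 in CT26.

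**Figure D2:**
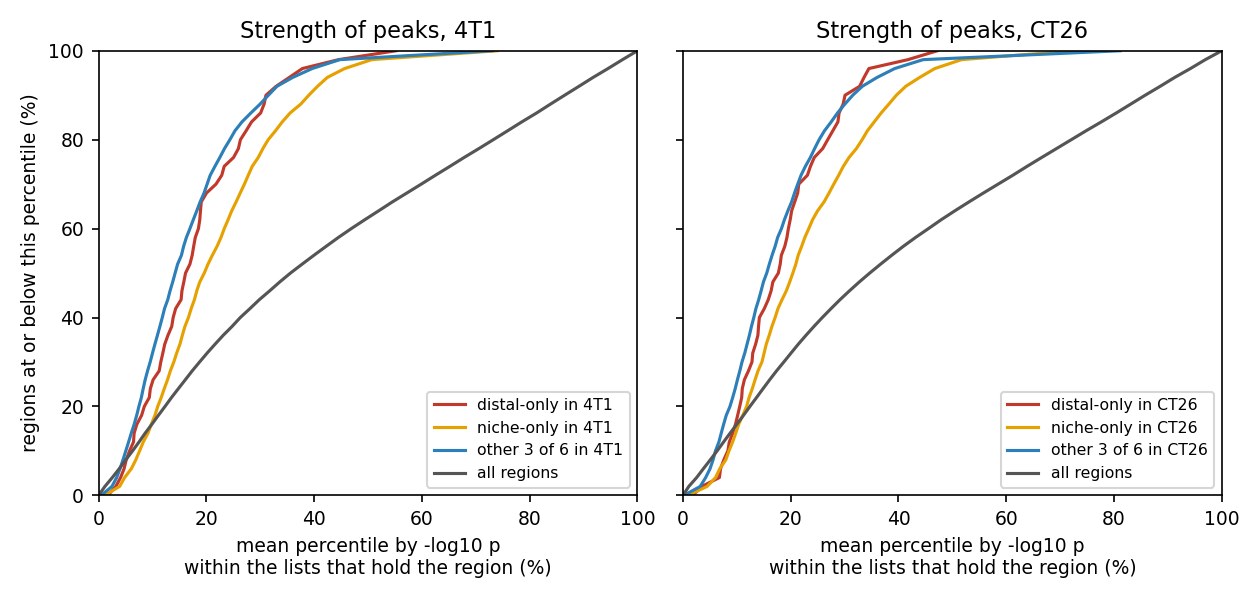
Curves give, for each model, the percent of regions (vertical axis) whose mean percentile by -log10 p, over the libraries of that model that hold the region, is at or below the value on the horizontal axis. Distal-only regions (median 16.1 in 4T1 and 17.7 in CT26) run beside the other regions held by 3 of 6 libraries and far to the left of all regions (35.6 and 34.7).

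Just outside the rule, 477 regions were held by 3 distal libraries and 1 niche library in 4T1 and 347 in CT26, with median percentiles of 16.6 and 19.7 in the distal libraries. Regions with 2 distal libraries and no niche library numbered 587 in 4T1 and 629 in CT26, with medians of 10.6 and 13.7. A single further call in or out would change membership.

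Regions absent from the niche of both models lay in or near Vav2, Klf3, Sec14l3 and Usp25. The Vav2 region lies inside the gene, which encodes a guanine nucleotide exchange factor (chromosome 2, 27323943 to 27324940). No niche library had a peak there, and the fold enrichment was 3.08, 3.23 and 3.46 in 4T1 distal lung and 3.57, 3.58 and 3.37 in CT26 distal lung. All 6 distal values lie close together. The Klf3 region lies 19786 bp outside the gene of this Krüppel-like zinc finger transcription factor (chromosome 5, 64852688 to 64853356). It had no niche peak, and 3.41, 3.87 and 3.80 in 4T1 distal lung and 3.17, 3.77 and 4.53 in CT26 distal lung. The Sec14l3 region lies 788 bp from an end of the gene, which encodes a Sec14-like lipid-binding protein (chromosome 11, 4079779 to 4080626). It had no niche peak, and 3.25, 3.97 and 4.14 in 4T1 distal lung and 2.93, 3.36 and 3.45 in CT26 distal lung. The Usp25 region lies 232668 bp from that deubiquitinase gene (chromosome 16, 76780489 to 76781015). It had no niche peak, and 4.23, 3.17 and 3.90 in 4T1 distal lung and 3.44, 3.42 and 2.99 in CT26 distal lung. Their mean percentiles were 17.3 (Vav2), 19.1 (Klf3), 13.7 (Sec14l3) and 13.7 (Usp25), within the range of the other distal-only regions. With peaks up to 500 bp apart merged, all 4 still met the rule in both models. In both models at once, 0 of the 4 met it with a -log10 q of at least 5, with equal numbers of peaks per list or with 50% of the region covered. In a single model, the Vav2 region met it with equal numbers of peaks and the Klf3 region with 50% covered. Taken without these regions, the gene with 10 kb on each side could be tested in all 4 cases, and 0 of the 4 passed in either model (limma, lowest adjusted p 0.581 in 4T1 and 0.0868 in CT26), where over all loci 0.0178% were lower and 0.535% higher in 4T1, and 0.113% lower and 0.517% higher in CT26. At an unadjusted p under 0.05, 0 passed in 4T1 and 1 was higher in the CT26 niche, against 7.84% of all loci higher there.

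**Figure D3:**
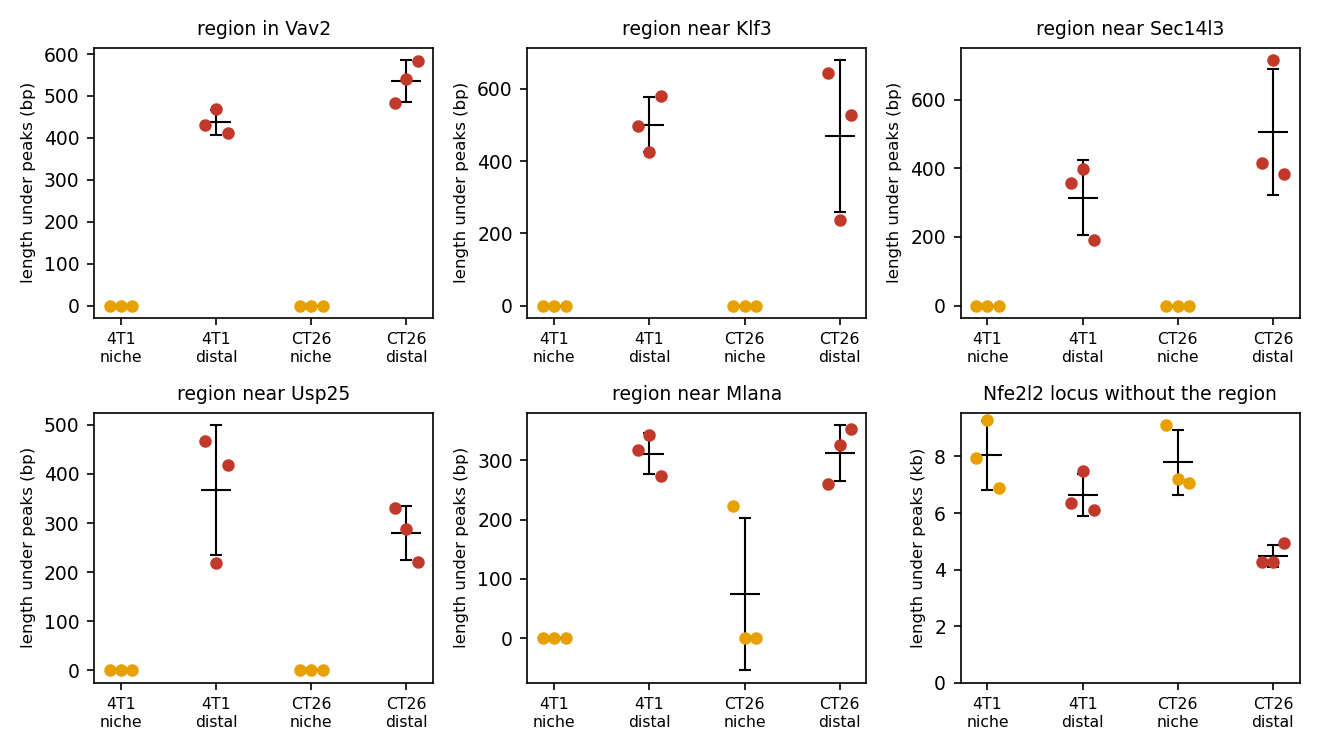
Points give the length under peaks in each library, in bp, for the 4 regions distal-only in both models and for the 4T1 distal-only region near Mlana, and in kb for the Nfe2l2 gene with 10 kb on each side but without its distal-only region. Dashes with bars are mean and SD over 3 libraries; niche groups stand at 0 in the upper row and for Usp25, while the Nfe2l2 locus is higher in the CT26 niche than in CT26 distal lung.

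By percentile, the 10 strongest regions distal-only in 4T1 lay near Strit1, Spp2, Ddx47, Add3, Celsr1, Tdrd3, Tnc, Gata2, Tbc1d1 and Arid5b, with mean percentiles of 34.0 to 55.2. The Strit1 region (chromosome 3, 63538823 to 63539484) lies 54916 bp from this gene, which encodes a micropeptide that activates the calcium pump SERCA. Its fold enrichment was 5.64, 5.81 and 6.27 in 4T1 distal lung, and neither a 4T1 niche library nor any of the 6 CT26 libraries had a peak. The Tnc region (chromosome 4, 64121457 to 64121895) had the same pattern, with 4.44, 5.49 and 4.49 in 4T1 distal lung and no peak elsewhere. It lies 74441 bp from the gene of the matrix protein tenascin C. The Spp2 region, near a secreted phosphoprotein gene, had 5.31, 4.63 and 4.93 in 4T1 distal lung and 3.66 in 1 CT26 niche library. The Gata2 region, 27523 bp from the gene of a blood cell transcription factor, had 4.63, 4.34 and 5.37 in 4T1 distal lung, and CT26 peaks of 3.93 and 4.40 in 2 niche libraries and none in distal lung. The Tdrd3 region, inside the gene of a Tudor domain protein, had 4.79, 4.06 and 4.33 in 4T1 distal lung. In CT26 it had 4.48 in 1 niche library, against 3.76, 4.49 and 5.20 in distal lung. Regions inside Add3, a cytoskeletal adducin, Tbc1d1, a Rab GTPase-activating protein, and Arid5b, a DNA-binding chromatin protein, and near Ddx47, an RNA helicase, and Celsr1, a cadherin of planar cell polarity, had CT26 peaks in 1 to 4 libraries.

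By percentile, the 10 strongest regions distal-only in CT26 lay near Map2, Pde4d, Rnf144b, Taco1, S1pr3, Fam181a, Ptgdr, Snx19, Ntrk2 and Ice1, with mean percentiles of 32.8 to 47.2. The Map2 region (chromosome 1, 66101364 to 66101896), 73305 bp from the gene of a neuronal microtubule protein, had no CT26 niche peak and fold enrichments of 4.43, 5.58 and 5.27 in CT26 distal lung. In 4T1 it had 4.74 and 4.04 in 2 niche libraries, against 4.62 and 6.21 in 2 distal libraries. The Pde4d region, inside the gene of a cyclic AMP phosphodiesterase (chromosome 13, 109789182 to 109789512), had no CT26 niche peak and 4.69, 4.33 and 4.21 in CT26 distal lung. All 10 had 4T1 peaks at both sites, and those near Rnf144b, a ubiquitin ligase gene, S1pr3, a receptor for sphingosine 1-phosphate, and Fam181a had one in all 6 4T1 libraries. The S1pr3 region (chromosome 13, 51363127 to 51363904) had 4.14, 4.58 and 4.44 in CT26 distal lung. In 4T1 its values were 4.15, 4.44 and 4.89 in the niche, against 5.15, 5.58 and 3.90 in distal lung, and the sites overlapped. The Ntrk2 region, inside the gene of a neurotrophin receptor, had 3.64, 4.63 and 4.60 in CT26 distal lung. In 4T1 it had 4.78 and 3.73 in 2 niche libraries, against 4.56, 4.58 and 4.82 in distal lung.

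The 230 regions had 221 nearest genes, of which 10 were on the 18 gene lists considered, through 10 regions (4.35%, against 4.13% of all regions). A list here is a set of genes of a pathway or cell type. No region had a nearest gene on the lists for surfactant and lamellar bodies, AT1 cells, transitional alveolar cells and p53, interferon response, NF-kB and acute inflammation, glucocorticoid and circadian genes, leukocytes, endothelium, fibroblasts or airway. The list of AT2 transcription factors had Klf3 alone, that of EGF and FGF signalling Vav2 and that of lipid synthesis and uptake Sec14l3. The list of AP-1 and stress factors had Nfe2l2, which encodes the oxidative stress factor NRF2, and Klf6, a Krüppel-like factor, both nearest to regions distal-only in 4T1. Sox2, a transcription factor of the stem and progenitor list, lies 431831 bp from its 4T1 region. Genes nearest to regions distal-only in CT26 included Sfrp4, a secreted Wnt inhibitor, and the neuronal receptors Ntrk2 and Robo1. With 0 to 2 regions on each list, none can be set apart from the share in all regions.

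The Nfe2l2 region (chromosome 2, 75689061 to 75689935), inside the gene, was among the weakest, at a mean percentile of 5.7. No 4T1 niche library had a peak in it, and its fold enrichment was 1.86, 1.99 and 2.02 in 4T1 distal lung. CT26 peaks were present in 0 niche libraries and in 2 distal libraries (2.30 and 2.55). The Klf6 region (chromosome 13, 5886851 to 5888193) lies 16457 bp from the gene and had 3.52, 2.87 and 4.41 in 4T1 distal lung, with no peak in 4T1 niche or CT26 libraries. The Sfrp4 region (chromosome 13, 19635604 to 19636620) lies 2778 bp from the gene and had no CT26 niche peak, with 2.90, 3.45 and 3.55 in CT26 distal lung. In 4T1 a single distal library had a peak there (3.40).

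Gene ends lay within 1 kb of 15 regions. In 4T1 these were at Pak6, S100a10, Exoc3l2, Ctf2, Uqcr10, Plin5, Pabpc2 and Mc5r, in CT26 at Ccdc190, Bnipl, Vstm2b, LOC100504180, Sostdc1 and Ano6, and in both at Sec14l3. The S100a10 region (chromosome 3, 93564700 to 93564949) is 54 bp from an end of the gene, which encodes a partner of annexin A2. It had no 4T1 niche peak, 3.43, 3.13 and 3.14 in 4T1 distal lung and no CT26 peak. The region at Plin5, which encodes a coat protein of lipid droplets (chromosome 17, 56111645 to 56112349), had no 4T1 niche peak and 3.60, 4.77 and 3.70 in 4T1 distal lung. In CT26 it had peaks in 2 niche libraries (3.84 and 4.18) and none in distal lung. Pairs of regions had a single nearest gene at Slc1a2, a glutamate transporter (13.2 kb apart), Slc23a2, a vitamin C transporter (6.45 kb apart), Pip5k1b, a lipid kinase (38.6 kb apart), and Bmper, a BMP-binding protein, all in 4T1. In CT26 these were Klf12, Tcf4, 9530057J20Rik and Gm40892, and Myo5b, a myosin motor gene, had 1 region of each model.

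**Figure D4:**
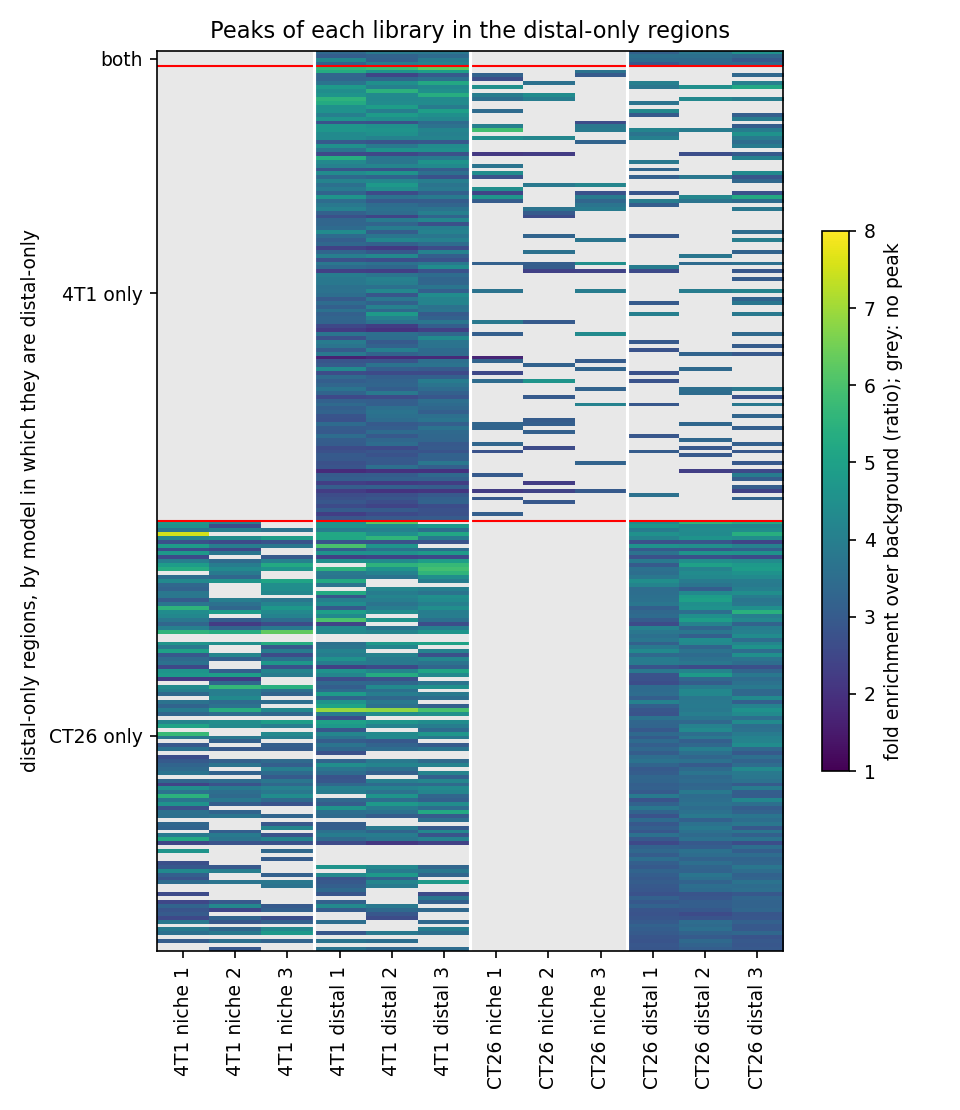
Each row is 1 of the 230 distal-only regions and each column a library; colour gives the deposited fold enrichment (ratio) and grey a library with no peak. Rows are grouped by the model in which they are distal-only (4 both, 116 4T1 only, 110 CT26 only) and run from the highest mean percentile down. The grey blocks in the niche libraries of the model concerned follow from the rule, and the CT26 columns are sparser than the 4T1 columns for regions of the other model.

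The regions of each model were then followed in the model that the rule had not used for them. Of the 116 regions distal-only in 4T1 alone, 33, 25 and 23 had a peak in the CT26 niche libraries, against 27, 19 and 48 in CT26 distal lung. These are 19.8% to 28.4% in the niche and 16.4% to 41.4% in distal lung. Other regions held by 3 of the 6 4T1 libraries had a peak in 22.2% to 32.9% of cases in the CT26 niche libraries and 8.68% to 21.5% in CT26 distal lung, and all regions in 59.7% to 65.5% and 49.5% to 58.3%. The CT26 distal 3 library stands above the other 5, and without it the distal counts of 27 and 19 lie within or below the niche range. Of the 110 regions distal-only in CT26 alone, 88, 70 and 72 had a peak in the 4T1 niche libraries, against 90, 82 and 80 in 4T1 distal lung, and the sites overlap. These are 63.6% to 80.0% in the niche and 72.7% to 81.8% in distal lung. Of other regions held by 3 of the 6 CT26 libraries, each 4T1 niche library held 77.5% to 86.1%, against 66.8% to 75% in distal lung. Of all regions, each niche library held 75.5% to 78.8%, against 65.7% to 68.5%, and for both of these the sites do not overlap. In 4T1 itself, 2202 of the other regions held by 3 of 6 had 1 distal and 2 niche libraries, and 1094 had 2 distal and 1 niche. In CT26 these were 2178 and 1068, so the other regions held by 3 of 6 lean to the niche by composition.

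**Figure D5:**
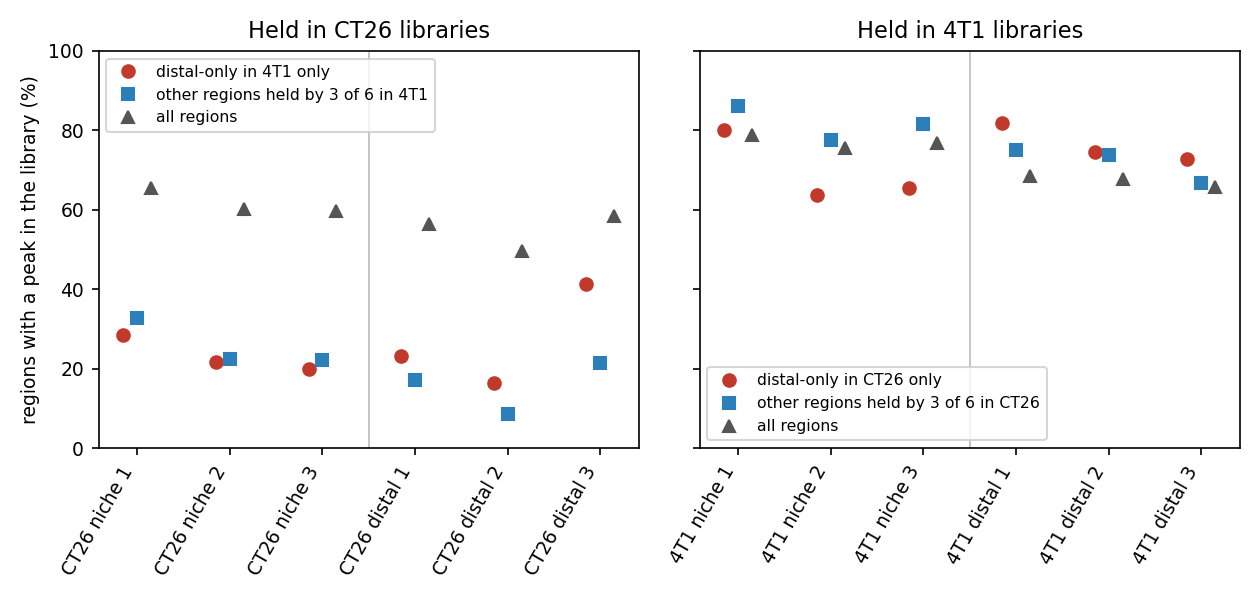
Points give the percent of regions with a peak in each library (vertical axis) of the model that was not used to choose them, for regions distal-only in 4T1 alone in CT26 libraries and for regions distal-only in CT26 alone in 4T1 libraries, beside other regions held by 3 of 6 libraries and all regions. In 4T1 the distal-only regions of CT26 (63.6% to 80.0% in the niche and 72.7% to 81.8% in distal lung) have overlapping sites, and all regions (75.5% to 78.8% in the niche and 65.7% to 68.5% in distal lung) have not.

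Counted region by region, 26 of the 116 4T1 regions had more niche than distal peaks in CT26 (22.4%, against 22.8% of all regions) and 36 had more distal than niche peaks (31.0%, against 8.94%). Of the 36, 22 had a peak in 1 distal and 0 niche libraries, and the part of the CT26 distal 3 library in this count was not tested. None of the 116 had a peak in all 6 CT26 libraries, against 42.5% of all regions and 0.364% of other regions held by 3 of 6 4T1 libraries. Another 30 (25.9%) had a peak in no CT26 library, against 20.7% and 36.7% of these sets. Of the 110 CT26 regions, 18 had more niche than distal peaks in 4T1 (16.4%, against 26.9%) and 34 more distal than niche peaks (30.9%, against 8.20%). A peak in all 6 4T1 libraries was found for 41 of the 110, or 37.3%. This compares with 55.0% of all regions and 38.8% of other regions held by 3 of 6 CT26 libraries. Another 7 (6.36%) had none, against 4.75% and 1.76% of these sets. More distal than niche peaks were found in 15.6% of the other regions held by 3 of 6 4T1 libraries and 4.42% of 4T1 niche-only regions, each followed in CT26. For CT26 these were 14.7% and 6.14%, followed in 4T1. More niche than distal peaks were found in 35.6% of the other regions held by 3 of 6 4T1 libraries and in 34.2% of those of CT26. All regions include those held by every library, which can show no difference. The other regions held by 3 of 6 had mostly niche libraries in their own model, and the part of this in the comparison was not tested.

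To test single regions, the length under peaks in each region was scaled to the mean total length of the lists and limma was fitted to log2 of this length plus 500 bp over the 64948 regions with a peak in at least 3 of 12 libraries. All 230 distal-only regions pass that filter by the rule itself. In CT26, 1 of the 116 regions distal-only in 4T1 alone was lower in the niche at an adjusted p under 0.05, where the background was 0.761%, and 0 were higher, where it was 1.71%. At an unadjusted p under 0.05, 9 were lower and 4 higher, and over all regions 12.4% and 8.35% were. A change of exactly 0 was found for 30 regions with no peak in any CT26 library, which passed the filter through 4T1 alone. Over the 86 with a CT26 peak, 32 changes were positive and 54 negative (62.8%), with a median of -0.10. Over all tested regions with a CT26 peak, 53.7% were negative and the median was -0.02. In 4T1, 0 of the 110 regions distal-only in CT26 alone passed in either direction (limma, lowest adjusted p 0.0532), where the background was 0.169% lower and 2.53% higher. Unadjusted, 18 were lower and 3 higher, against 7.84% and 6.43% of all regions. With 7 regions that had no 4T1 peak left out, 36 changes were positive and 67 negative (65.0%), with a median of -0.15. Over all tested regions with a 4T1 peak, 61.3% were negative and the median was -0.06. For every distal-only region, the niche libraries of the model that chose it hold no peak and add no spread to the error that the 4 groups share. Its p in the other model can therefore be too small, so these counts are not on equal terms with those of all regions. In the contrast used by the rule, which supports nothing, 41 of 120 regions passed in 4T1 and 80 of 114 in CT26.

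The region that passed lies 20406 bp from Mlana, a gene of melanosomes (chromosome 19, 29676747 to 29677134). In CT26, which did not choose it, the length under peaks was 223, 0 and 0 bp in the niche, against 260, 325 and 352 bp in distal lung, and the sites do not overlap. In 4T1, which chose it, there was no niche peak and 317, 342 and 274 bp in distal lung. The log2 change in CT26 was -0.67 ± 0.15 (SE; limma adjusted p = 0.0424). The 4T1 niche libraries hold no peak there and add no spread to the error that the 4 groups share, so this p can be too small. It was lost under 16 of 19 alternatives (adjusted p 0.0108 to 0.606), among them the removal of each of 10 of the 12 libraries (all but CT26 niche 1 and CT26 distal 1).

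Regions whose niche and distal libraries did not overlap were counted in the model not used. Among the 116 4T1 regions followed in CT26, 0 had every niche library above every distal one, where 16.5% of all regions did. The order below was found for 2, near Mlana and Nhlrc1, where 1.09% of all regions had it. The order above needs a peak in all 3 CT26 niche libraries, which few of these regions had (1 with 1 distal peak and 1 with 2). The order below needs one in all 3 distal libraries (2 regions with 1 niche peak and 2 with 2). The 0 was thus nearly fixed by how few CT26 peaks these regions hold, and no direction is read from it. Among the CT26 regions followed in 4T1, 7 were above (15.7% of all regions) and 9 below (2.77% of all regions). The 9 lay near Meis2, Sepsecs, Mmp10, Snx19, Taco1, Rnf144b, Nedd4l, Trpm3 and Pgm5. At Mmp10, a matrix metalloproteinase gene, the 4T1 length under peaks was 279, 0 and 191 bp in the niche, against 761, 390 and 433 bp in distal lung. At Taco1, a mitochondrial translation factor gene, it was 198, 0 and 0 bp in the niche, against 508, 454 and 214 bp in distal lung. At Trpm3, an ion channel gene, it was 348, 357 and 303 bp in the niche, against 584, 444 and 412 bp in distal lung. These 3 are given as examples and were chosen after their values were seen.

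The loci around the nearest genes, taken as the gene with 10 kb on each side and without the distal-only regions, passed in 1 case in the model not used, a count that depends on the scaling. Of 111 genes nearest to regions distal-only in 4T1 alone, 105 had a locus that could be tested in CT26, of which 0 were lower (background 0.113%) and 1 was higher (background 0.517%). At an unadjusted p under 0.05, 16 were lower and 8 higher, against 11.0% and 7.84% of all loci. Without scaling to list length, 22 of the 105 passed, all higher in the niche, where 12.4% of all loci were higher. Of 105 genes nearest to regions distal-only in CT26 alone, 93 could be tested in 4T1 and 0 passed in either direction (background 0.0178% lower and 0.535% higher; limma, lowest adjusted p 0.125). Unadjusted, 11 were lower and 1 higher, against 7.07% and 6.20% of all loci. The locus that passed was Nfe2l2. Its length under peaks was 9.11, 7.19 and 7.07 kb in the CT26 niche, against 4.28, 4.27 and 4.94 kb in CT26 distal lung, and the sites do not overlap. The log2 change was 0.47 ± 0.09 (SE; limma adjusted p = 0.0479). In 4T1 it was 0.06 ± 0.09 (limma adjusted p = 0.799), with 7.96, 9.29 and 6.88 kb in the niche, against 6.37, 7.48 and 6.10 kb in distal lung. The CT26 call was lost under 17 of 20 alternatives (adjusted p 0.00905 to 0.415), among them the removal of each of 11 of the 12 libraries (all but 4T1 niche 2). The distal-only region of Nfe2l2 itself had CT26 peaks in distal lung alone.

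Membership depended on how peaks were counted, and was followed by overlap with a region that met the rule in the same model. With only peaks of -log10 q of at least 5, 161 regions met the rule, and 4 of the 230 were overlapped, all of 4T1. With equal numbers of peaks in each list, 757 met it and 52 of the 230 were overlapped. Where peaks had to cover at least 50% of a region, 92 of the 230 were overlapped, and with peaks up to 500 bp apart merged 228 were. The 4T1 regions near Strit1 and inside Add3 were overlapped under all 4 settings, and 19 others under 3, among them the CT26 region inside Snx19, a sorting nexin gene. The Snx19 region (chromosome 9, 30441872 to 30442173) had no CT26 niche peak and fold enrichments of 2.98, 2.89 and 3.14 in CT26 distal lung. In 4T1 it had 2.65 and 2.48 in 2 niche libraries, against 3.10, 3.61 and 3.44 in distal lung. The Add3 region (chromosome 19, 53185502 to 53185796) had no 4T1 niche peak and 3.27, 3.34 and 3.58 in 4T1 distal lung, and in CT26 a peak in 1 niche library (2.69). These 3 were singled out after their values were seen.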

How the data were processed

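Broad peak lists of 12 libraries, in GRCm38 coordinates, were used. Peaks were called per library; the submitters' processing notes name MACS2 and bedtools, and their versions and settings, the aligner and the read filters are, in the sources used here, not given. Deposited columns are peak start and end, fold enrichment over background (a ratio within a library), -log10 p and -log10 q, as the authors' caller gave them. The lowest deposited -log10 q was 1.00. No read counts are given, so depth is unknown and no counting interval could be computed; more reads and more open chromatin can each lengthen a list. Peaks on 19 autosomes and X were kept.

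Peaks overlapping by at least 1 bp were merged with Python 3.11.15 and pandas 2.3.3. Genes were taken from the RefSeq table of GRCm38.p6 (21627 protein-coding genes); strand-aware start sites come from its promoter windows. Lengths were modelled with limma 3.58.1 (R 4.3.3; 4 group means over all 12 libraries, trend, 8 residual degrees of freedom, Benjamini-Hochberg over all features tested). Log2 changes depend on the added 500 bp and understate changes of short peaks, and a peak list records a weak signal just under the caller's threshold as no peak. The fit was tested on simulated data with planted changes and normal noise in every group. No group was fixed at no peak there, so the simulation does not cover the setting of the distal-only regions. Only the model that the rule had not used was tested for a region; regions distal-only in both models were not tested. The 12 lists were compared pairwise and none were duplicates (at most 81.9% of regions shared within a group). Neighbouring loci share peaks and are not independent.

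Named regions are those distal-only in both models, the 10 of each model with the highest mean percentile, those within 1 kb of a gene end, genes nearest to more than 1 region, genes on the 18 lists (366 genes, 364 found) and regions called in the model not used; 1 of them is not reported here. The regions and lists were chosen with earlier results of these data known.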

Additional observations from a re-analysis of the deposited data

Results flagged for a closer look

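In 7 regions that were distal-only in CT26, every 4T1 niche library had a longer length under peaks than every 4T1 distal library. The CT26 direction of these regions was fixed by how they were chosen. They are 7 of 110, while over all regions 15.7% had this order in 4T1. The difference between the models was not tested, and none of the 7 passed in 4T1. The 4T1 log2 changes (scaled length plus 500 bp) of 6 of them follow. Near Sostdc1, an antagonist of BMP and Wnt signals, it was 0.51 (500, 329 and 415 bp in the niche, against 0, 0 and 325 bp in distal lung). Near 1500009L16Rik it was 0.414 (1154, 1133 and 1231 bp in the niche, against 681, 548 and 672 bp in distal lung). Inside Myo5b it was 0.262. Near Rps13, a ribosomal protein gene, it was 0.23, inside Tcf4 it was 0.226 and inside Amn1 it was 0.0541. The niche lists of 4T1 were longer than its distal lists, and the part of list length in these 7 was not tested.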

How the results depend on the processing

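With equal numbers of peaks per list the distal-only regions numbered 417 in 4T1, 360 in CT26, 757 in either and 20 in both models, and 43.3% lay outside genes. Requiring peaks to cover 50% of a region gave 194 in 4T1, 0 in both and 40.7% outside genes, and a -log10 q of at least 5 gave 40 in CT26 and 2 in both. The regions in both models with equal numbers of peaks or at the stricter q overlapped 0 of the 4 found by the main rule. Leaving out 1 library loosens the rule and gave 232 to 355 in 4T1, 182 to 512 in CT26 (512 without CT26 distal 2, the shortest list), 298 to 624 in either, 4 to 9 in both and 43.9% to 52.6% outside genes. Regions lower in the niche of 4T1 numbered 65 without scaling, 179 by the highest fold enrichment and 0 to 163 without 1 library (0 without each 4T1 niche library, 54 without 4T1 distal 3 and 67 without 4T1 distal 1). In CT26 they numbered 67 without scaling, 241 without the filter, 182 with equal numbers of peaks, 93 by the highest fold enrichment and 220 to 606 without 1 library (fewest without a 4T1 niche library or CT26 niche 1, and 294 and 321 without 4T1 distal 2 and 1). Without scaling, the median log2 change of all regions was 0.06 in 4T1 and 0.11 in CT26, against -0.06 and -0.0015 with it, and 67 lower and 1612 higher calls in CT26 (3.99% lower) compare with 494 and 1112 (30.8% lower). Whether the replicate numbers pair the niche and distal samples is not given in the labels, and small correlations cannot decide it. In 4T1 the correlation was 0.017 to 0.053 for same-numbered samples, against -0.042 to 0.012 for the others. In CT26 it was -0.0064 to 0.028, against -0.054 to 0.032. The replicate block left 15 regions lower in 4T1 and 6 in CT26, 0 distal-only regions and 0 loci. Of the 4T1 regions followed in CT26, 0 passed without scaling, with a pseudocount of 100 bp, without the filter, by fold enrichment, at a -log10 q of at least 5 (8 tested) and with equal numbers of peaks (31 tested), and 0 to 3 without 1 library (3 without CT26 distal 2). Of those 3, 0 were higher in the niche. Over all 64800 regions tested without CT26 distal 2, 345 were lower and 1078 higher in CT26. Of the CT26 regions followed in 4T1, 2 passed without scaling (1 higher), 3 at a -log10 q of at least 5 (23 tested, 1 higher), 2 with equal numbers of peaks (72 tested, 0 higher) and 0 to 2 without 1 library (2 without 4T1 distal 3, 1 higher). Over all 64948 regions tested in 4T1 without scaling, 65 were lower and 2166 higher. At the stricter q these were 84 and 733 of 41797, and with equal numbers of peaks 138 and 301 of 47896. Without 4T1 distal 3 they were 54 and 1487 of 64146. No direction is read from so few regions. Loci of 4T1 genes that passed in CT26 numbered 22 without scaling (all higher in the niche, where 12.4% of all loci were higher), 2 with a flank of 50 kb, 0 with either other pseudocount, at the stricter threshold or with equal numbers of peaks, and 0 to 1 without 1 library. Of the 2 with a flank of 50 kb (110 tested), 0 were higher, and the share of all loci at that flank is not at hand. Loci of CT26 genes in 4T1 numbered 1 without scaling (higher in the niche, where 3.34% of all loci were higher) and 0 to 0 without 1 library. The cause of these shifts was not tested. The unknown depth and 3 libraries per group limit all calls.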
